A study of Homo sapiens with 2 samples.

Results

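The 46 genes described here encode enzymes, membrane proteins and the proton pump of the lysosome, together with TFEB, a transcription factor for such genes. They were chosen by name, and a gene was read at the brightest of the probe sets that carried its symbol alone. Of the 46 genes, 43 had such a probe set, out of 11963 genes on the array. IFI30 had none, and the probe sets of ATP6V1F and GLB1 carried a second symbol, so that no value is given for these 3 genes. RNA came from L-428, an established Hodgkin's lymphoma cell line. One Affymetrix HG_133A microarray was hybridized with RNA from cells transfected with pcDNA6.2-GW/EmGFP-miR-DUSP5, whose artificial microRNA targets the phosphatase DUSP5 and is made together with EmGFP. The other was hybridized with RNA from control cells, for which the sample label names pcDNA6.2-GW/EmGFP-miR-neg. The methods call this control vector empty, so that whether the control cells made an artificial microRNA is not settled here. Both populations thus carried an EmGFP vector, and each is represented by 1 array of 1 cell line. With 1 array per condition no test was possible, and none of the differences has a replicate check.

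Lysosomes degrade proteins, glycans, lipids and glycogen with acid hydrolases. The V-ATPase, a rotary proton pump, acidifies them. Its V1 sector hydrolyses ATP in the cytosol and drives the V0 sector, which carries protons across the membrane. In cells of the B lineage, lysosomal proteases also process antigens for MHC class II. TFEB and its relatives activate many lysosomal genes through a DNA element built around an E-box, and mTORC1 on the lysosomal surface holds TFEB in the cytosol.

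The values are signal intensities on a linear scale, and differences are log2 ratios of knock-down over control. Where a gene had a pair of probe sets of similar brightness, the disagreement between their log2 ratios gave a standard deviation, which is the SD printed beside a ratio. The SD was 1.19 for the dimmest probe sets, with a mean signal below 100, then 0.73 up to 200, 0.41 up to 500, 0.36 up to 1000, 0.30 up to 3000 and 0.26 for brighter ones. It holds the error of the probes, and how much cultures vary remained unmeasured. A gene was called measured if its signals on both arrays averaged 200 or more, so that a gene bright on only 1 array could pass. Of the 43 genes, 39 passed, and CTSD, CTSL, CTSZ and TFEB did not. Between bulk samples, fewer cells that express a gene and less RNA per cell cannot be told apart.

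DUSP5 itself gave 368 on the knock-down array and 628 on the control array (log2 ratio -0.77, SD 0.41). The bright reference genes GAPDH (1.12) and ACTB (0.76) had ratios above 0. Of 8 markers of Hodgkin cells, 7 were measured. The summed signal of all 8 was 40754 on the knock-down array and 29850 on the control array. Among them FUT4 went the other way (317 and 756, -1.25). PAX5 was the only 1 of 7 B cell markers above the minimum. None of 10 macrophage markers and none of 5 T cell markers reached it, with summed signals of 522 and 410 on the knock-down array and 331 and 241 on the control array. Of 5 fibroblast markers, COL1A1 and DCN just passed it, at mean signals of 217 and 230.

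The lysosomal genes did not move as 1 block. Of the 39 measured genes, 12 (30.8%) were at least 1.5-fold lower after knock-down of DUSP5 and 4 (10.3%) at least 1.5-fold higher, and 23 lay between. Among all 6301 measured genes, 19% were that much lower and 15.6% that much higher. With the ratios of both arrays centred on their median, 14 lysosomal genes were lower and 2 higher, beside 23.4% and 11.5% of all measured genes. At 2-fold, 6 lysosomal genes were lower and 1 was higher, beside 7.3% and 4.38% of all measured genes. The median log2 ratio was -0.07 for the lysosomal genes and 0.01 for all measured genes. The difference from the control array was larger than 1 SD between probe sets for 21 of the 39 genes (53.8%), against 55.7% of all measured genes, and larger than 2 SD for 13 (33.3%), against 26.1%. The 7 lysosomal genes with mean signals above 3000 all lay between the 1.5-fold limits, whereas 24.1% of all genes of that signal were higher and 8.85% were lower. One of the 7, LAMP1, lay so close to the limit that it was past 1.5-fold lower with quantile normalization (-0.67), with the trend subtracted (-0.68), with centred ratios (-0.69) and averaged over its probe sets (-0.74). Below 3000, 0 of the 6 genes between 200 and 500 were higher and 2 were lower. Between 500 and 1000, 3 of 11 were higher and 5 lower, and between 1000 and 3000, 1 of 15 was higher and 5 lower. The shares of all genes within these 3 bands were not counted. LAMP1 (-0.583) and ASAH1 (-0.572) fell just short of the 1.5-fold limit of 0.585 on the log2 scale, and GUSB (0.598) and ATP6V1G1 (-0.604) just passed it.

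**Figure D1:**
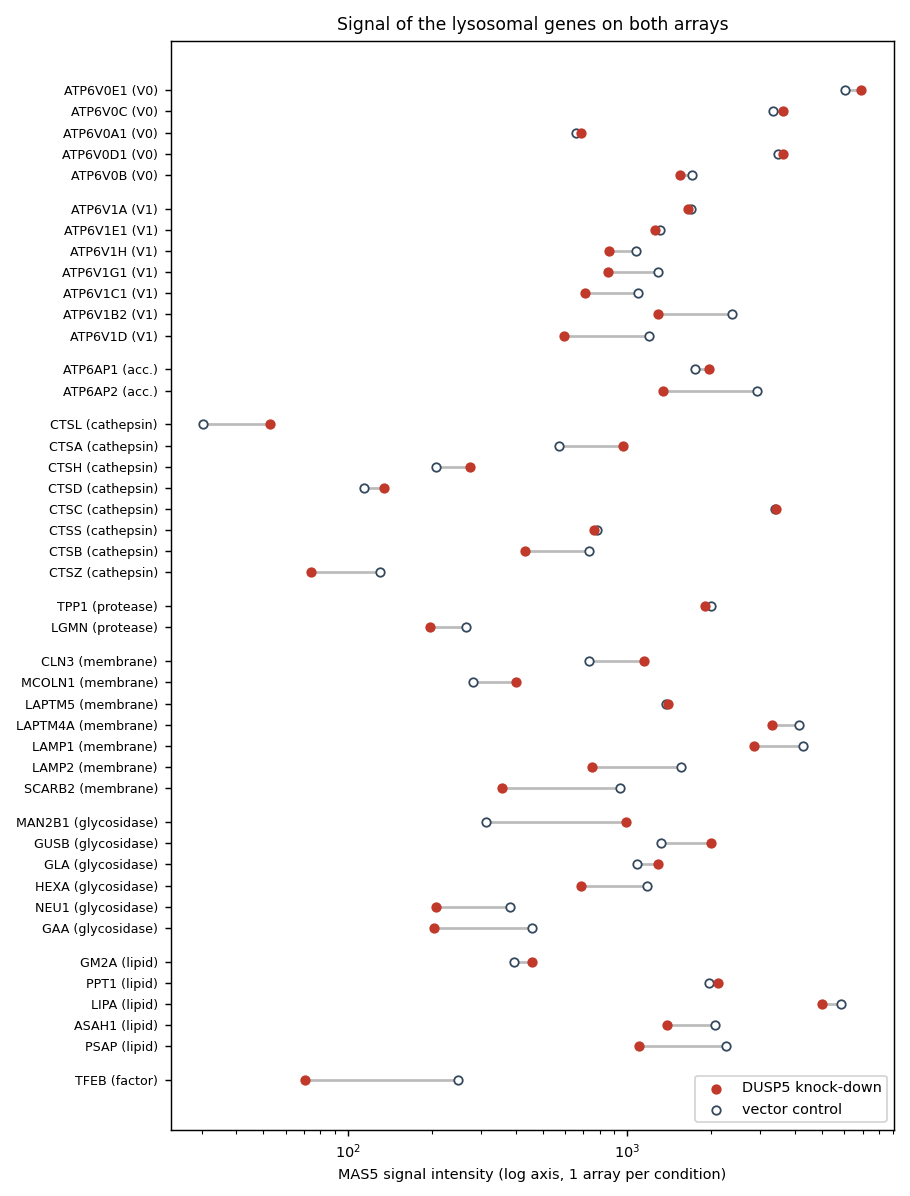
Signal intensity (log axis) of the 43 lysosomal genes with a probe set of their own on the knock-down array (filled red) and the control array (open), joined by a grey line, in groups by role. The lines of SCARB2, PSAP, GAA and MAN2B1 are long, and those of CTSC (3437 and 3396) and LAPTM5 (1407 and 1388) are hardly visible.

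The promoters of 7 lysosomal genes held the palindrome TCACGTGA, the core of the element bound by TFEB, and their sequences are shown because they allow the ratios of genes with and without this element to be set side by side. The sequences are those of RefSeq on GRCh38.p14, from 100 bases before the start of the gene to 10 bases after it, read 5′ to 3′ on the strand of the gene, with TCACGTGA and further copies of the E-box CACGTG in capitals. They are ordered from the lowest to the highest log2 ratio of the gene.
GAA (chr17:80101481-80101590, plus strand): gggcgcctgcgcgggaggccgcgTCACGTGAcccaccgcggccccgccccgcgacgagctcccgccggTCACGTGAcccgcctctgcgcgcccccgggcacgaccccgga
ATP6V1G1 (chr9:114587669-114587778, plus strand): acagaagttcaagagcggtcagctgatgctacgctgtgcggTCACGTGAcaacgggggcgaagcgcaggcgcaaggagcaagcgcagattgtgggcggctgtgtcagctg
LAMP1 (chr13:113297139-113297248, plus strand): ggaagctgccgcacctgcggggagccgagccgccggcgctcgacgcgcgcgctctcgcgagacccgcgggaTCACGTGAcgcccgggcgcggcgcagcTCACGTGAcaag
ATP6V0D1 (chr16:67481148-67481257, minus strand): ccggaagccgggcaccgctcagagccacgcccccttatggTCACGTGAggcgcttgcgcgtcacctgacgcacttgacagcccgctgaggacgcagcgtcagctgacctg
MCOLN1 (chr19:7522524-7522633, plus strand): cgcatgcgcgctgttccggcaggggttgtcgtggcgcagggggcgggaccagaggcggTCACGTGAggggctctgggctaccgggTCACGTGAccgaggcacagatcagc
CLN3 (chr16:28492065-28492174, minus strand): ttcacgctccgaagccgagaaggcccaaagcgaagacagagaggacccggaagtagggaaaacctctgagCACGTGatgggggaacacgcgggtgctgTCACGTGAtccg
CTSA (chr20:45891235-45891344, plus strand): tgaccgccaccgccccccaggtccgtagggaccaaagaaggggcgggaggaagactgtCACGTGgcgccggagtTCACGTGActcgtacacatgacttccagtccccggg
In the full promoters, 250 bases before to 50 bases after the start, GAA, LAMP1 and MCOLN1 each held 2 copies of TCACGTGA. The promoter of LAMP1 had 4 further copies of CACGTG between 192 and 142 bases before the start, outside the stretch shown. Both motifs read the same on either strand, and each TCACGTGA contains a CACGTG. A promoter was listed for 34 of the 46 genes, of which 7 (20.6%) held TCACGTGA and 11 (32.4%) held CACGTG. Of 122 genes of the further lysosomal lists with a promoter listed, 11.5% held TCACGTGA and 26.2% held CACGTG. Of all 27305 genes with a promoter listed, 1.18% held TCACGTGA and 8.77% held CACGTG. Of 5334 genes that were measured on the arrays and had a promoter listed, 2.76% held TCACGTGA and 13.7% held CACGTG. The genes with no entry were HEXA, ATP6V1B2, ATP6V1H, ASAH1, ATP6V0E1, LAMP2, PSAP, LGMN, ATP6V1A, CTSS, CTSB and ATP6V1C1.

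The 7 genes with the longer motif went both ways. GAA (-1.16) and ATP6V1G1 (-0.60) were at least 1.5-fold lower, and CLN3 (0.65) and CTSA (0.76) at least 1.5-fold higher. LAMP1 (-0.58), ATP6V0D1 (0.05) and MCOLN1 (0.51) lay between. The second probe set of CLN3 gave -0.13. Their median was 0.05. Of the 3 genes with 2 copies, all within 77 bases of the start, GAA and LAMP1 had ratios below 0 and MCOLN1 had a ratio above 0. The 18 measured genes whose promoter held neither motif had a median of 0.04 and ran from -1.40 for SCARB2 to 1.67 for MAN2B1. The 12 genes with no promoter entry were all measured and had a median of -0.60. Of these 12 genes, 6 were at least 1.5-fold lower and 0 higher, beside 19% and 15.6% of all measured genes. The genes with no promoter entry hold 6 of the 12 lower lysosomal genes, ATP6V1B2, ATP6V1C1, CTSB, LAMP2, HEXA and PSAP, whose motifs were not analysed here. Of the 4 genes with CACGTG alone, ATP6V0B (-0.15) and NEU1 (-0.89) were measured, CTSD was too dim and IFI30 had no value. A match of these letters is a description and not a bound site.

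**Figure D2:**
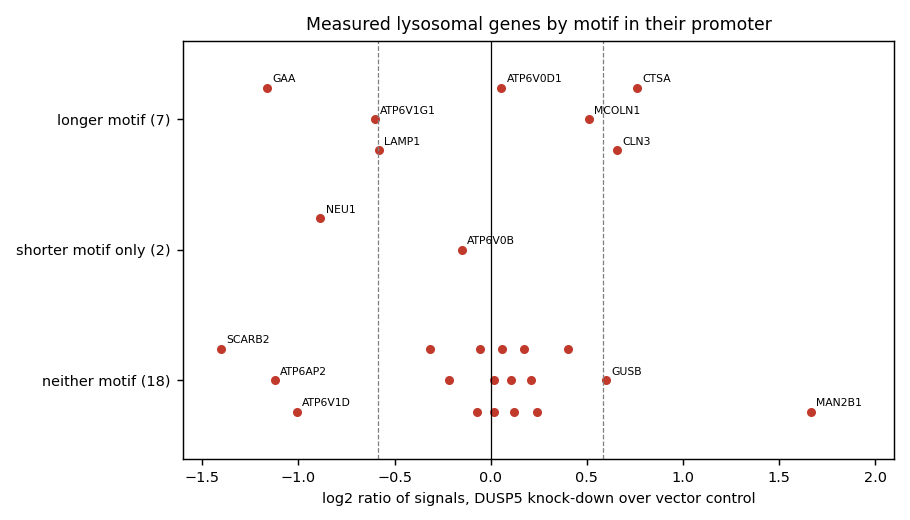
Log2 ratio (knock-down over control) of the measured lysosomal genes with a listed promoter, in 3 rows by the motif it held. Dashed lines mark a 1.5-fold difference, the vertical offset has no meaning, and in the lowest row only genes past the dashed lines are named. The 7 genes of the top row spread from -1.16 to 0.76.

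In the V-ATPase, 4 subunits of the V1 sector and none of the V0 sector were at least 1.5-fold lower, a contrast that could not be tested with these arrays. With ATP6AP2, 5 of the 14 measured genes of the pump (35.7%) were lower and 0 were higher, beside 19% and 15.6% of all measured genes, so that the share outside the limits was close to that of all genes. The sectors differed in brightness, with a median mean signal of 3493 for V0 and 1077 for V1. Of all genes with a mean signal above 3000, 8.85% were at least 1.5-fold lower. All 5 measured genes of the V0 sector had log2 ratios between -0.15 and 0.20 at the brightest probe set. ATP6V0C, which forms the proton-carrying ring, gave 3641 on the knock-down array and 3345 on the control array (0.12, SD 0.26), with 0.35 at its second probe set. ATP6V0D1, which couples the ring to the central stalk, gave 3621 and 3488 (0.05). ATP6V0B, a further subunit of the ring, gave 1549 and 1718 (-0.15), and ATP6V0A1, which holds the proton half-channels, 684 and 656 (0.06), with -0.22 at its second probe set. ATP6V0E1 gave 6934 and 6032 (0.20), with 0.24 at its next 2 probe sets and -0.60 at the dimmest measured one. None of the ratios at the brightest probe sets was larger than the SD.

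In the V1 sector all 7 measured genes had a log2 ratio below 0 as deposited, with a median of -0.60. Of them 4 (57.1%) were at least 1.5-fold lower and 0 higher, beside 19% and 15.6% of all measured genes. The signs of ATP6V1A and ATP6V1E1 were not stable, at 0.034 and 0.009 with quantile normalization and 0.0032 and 0.0005 with the trend subtracted, and ATP6V1A was 0.38 averaged over its probe sets. ATP6V1B2, the non-catalytic subunit of the ATPase head in most tissues, gave 1296 on the knock-down array and 2387 on the control array (-0.88, SD 0.30). ATP6V1D, a part of the central stalk that turns, gave 598 and 1204 (-1.01, SD 0.36). Its second probe set was also lower (-1.40), but the remaining one was not (0.10). ATP6V1C1, which bridges the stator stalks to the membrane sector, gave 709 and 1098 (-0.63), with -0.58 at its second measured probe set. The dimmest probe set of ATP6V1C1, under the minimum, went the other way (204 and 117, 0.80). ATP6V1G1, a stator subunit, gave 855 and 1299 (-0.60). The regulatory subunit ATP6V1H gave 867 and 1084 (-0.32), which is within the SD. The stator subunit ATP6V1E1 (1267 and 1319, -0.06) and the catalytic subunit ATP6V1A (1661 and 1696, -0.03) were near their control values, and the dimmer probe set of ATP6V1A was higher (0.80). ATP6V1C1 (-0.55 and -0.56) and ATP6V1G1 (-0.53 and -0.53) fell short of 1.5-fold when the arrays were quantile normalized or a trend with signal was subtracted, and ATP6V1B2 and ATP6V1D did not. Averaged over all probe sets per gene, the medians of the sectors were -0.32 for V1 and -0.08 for V0.

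The 2 accessory proteins of the pump differed from each other. ATP6AP2, also known as the prorenin receptor, gave 1350 on the knock-down array and 2939 on the control array (-1.12, SD 0.30), and its second probe set gave 1022 and 2219 (-1.12). Its dimmest probe set, under the minimum, went the other way (85.8 and 44.0). ATP6AP1, which takes part in assembly of the pump, gave 1974 and 1750 (0.17). Of 16 further genes of the V-ATPase and its assembly, 6 were measured. At least 1.5-fold higher were 2 genes (33.3%), and none was that much lower, beside 15.6% and 19% of all measured genes. The 2 higher genes were DMXL1 (0.78), a subunit of the RAVE-like assembly complex, and TCIRG1 (0.72), an isoform of the half-channel subunit. ATP6V0E2 (0.43), ATP6V0A2 (0.38), WDR7 (-0.17) and DMXL2 (-0.51) lay between. The median was 0.41, and -0.17 without the probe set types _s_at and _x_at.

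Cathepsins, the lysosomal proteases, were measured for 5 of 8 genes. CTSA, a serine carboxypeptidase that also protects NEU1 and GLB1 from degradation, gave 971 on the knock-down array and 573 on the control array (0.76, SD 0.36). CTSB, an abundant cysteine protease, gave 434 and 731 (-0.75, SD 0.36). Its other measured probe sets gave -0.57 and 0.07. CTSC, which activates serine proteases of granules, gave 3437 and 3396 (0.02), and CTSS, which trims the invariant chain in antigen-presenting cells, gave 766 and 784 (-0.03). CTSA was thus higher, CTSB lower at 2 of 3 probe sets, and both CTSC and CTSS were nearly equal on the 2 arrays. CTSH, an aminopeptidase, gave 275 and 208 (0.40), within the SD of 0.41. CTSD (135 and 115), CTSL (52.8 and 30.5) and CTSZ (73.8 and 131) were too dim to be read. Among other proteases, the asparaginyl endopeptidase LGMN gave 197 and 266 (-0.44, SD 0.41). The tripeptidyl peptidase TPP1 gave 1914 and 2009 (-0.07), with -0.15 and -0.18 at its next probe sets.

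Glycosidases, which remove sugars from glycoproteins, glycolipids and glycogen, went in opposite directions. Of 6 measured genes, 3 (50%) were at least 1.5-fold lower and 2 (33.3%) higher, beside 19% and 15.6% of all measured genes. The median was -0.27. MAN2B1, an alpha-mannosidase, gave 993 on the knock-down array and 313 on the control array, which is 3.17-fold higher (1.67, SD 0.36) and the highest ratio of the lysosomal genes. It rests on 1 probe set. GUSB, the beta-glucuronidase, gave 2001 and 1322 (0.60, SD 0.30). The lower genes were GAA, which degrades glycogen (205 and 459, -1.16, SD 0.41), the sialidase NEU1 (207 and 383, -0.89, SD 0.41) and HEXA, the alpha subunit of beta-hexosaminidase (685 and 1184, -0.79, SD 0.36). All 5 differences were larger than the SD, and that of MAN2B1 was larger than 4 times the SD. GLA, the alpha-galactosidase, gave 1290 and 1092 (0.24), within the SD. Among the 4 glycosidases with a mean signal of at least 500, which leaves out GAA and NEU1, the median was 0.42.

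Genes that handle lipids in the lysosome were lower or near their control value at the brightest probe set. PSAP, the precursor of the saposins that present sphingolipids to hydrolases, gave 1110 on the knock-down array and 2260 on the control array (-1.03, SD 0.30), and its second probe set gave 952 and 2080 (-1.13). ASAH1, the acid ceramidase, gave 1397 and 2077 (-0.57, SD 0.30), with -0.45 and -1.24 at its other measured probe sets. Both genes were thus lower at every measured probe set. GM2A, which presents the ganglioside GM2 to beta-hexosaminidase, went the other way at all 6 of its probe sets. The brightest gave 458 and 396 (0.21, SD 0.41), and the others, of which 2 were under the minimum, ran from 0.53 to 1.47. Averaged over its probe sets GM2A was 0.84, past the 1.5-fold limit. The acid lipase LIPA gave 5021 and 5832 (-0.22), and PPT1, a thioesterase that removes palmitate from proteins, 2117 and 1971 (0.10), both within the SD.

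Membrane proteins of the lysosome held the gene with the lowest ratio among the 39. SCARB2, the receptor that delivers glucocerebrosidase, gave 359 on the knock-down array and 949 on the control array, or 37.8% of control (-1.40, SD 0.36). Its second probe set gave 347 and 780 (-1.17). LAMP2, a main glycoprotein of the lysosomal membrane, gave 752 and 1560 (-1.05, SD 0.30) and was lower at its other 2 probe sets as well (-0.68 and -1.58). LAMP1, its close relative, gave 2853 and 4274 (-0.58, SD 0.26), with -0.73 and -0.92 at the next 2. These 3 genes were lower at every measured probe set. CLN3, which is mutated in a juvenile form of neuronal ceroid lipofuscinosis, gave 1155 and 734 (0.65, SD 0.36), but its second probe set gave 397 and 435 (-0.13). MCOLN1, a cation channel of the lysosome, gave 400 and 281 (0.51, SD 0.41). LAPTM4A gave 3325 and 4136 (-0.31, SD 0.26), and LAPTM5, which is found mainly in hematopoietic cells, 1407 and 1388 (0.02). Of the 7 genes, 2 (28.6%) were at least 1.5-fold lower and 1 (14.3%) was higher, beside 19% and 15.6% of all measured genes. The median was -0.31.

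Several probe sets of 1 gene are the only repeat measure on these arrays. Of 17 lysosomal genes with several measured probe sets, 11 (64.7%) had all of them on the same side of 0, against 68.2% of 1897 such genes on the array. Of the 12 lower genes, LAMP2, SCARB2, PSAP, ATP6AP2 and ATP6V1C1 were lower at all of their measured probe sets, of which each had at least 2. CTSB and ATP6V1D were not, and the other 5 had a single measured probe set. Of the 4 higher genes, CLN3 had 2 measured probe sets, which differed in sign, and the others had 1. Averages over all probe sets included those under the minimum, which for ATP6V1C1 (0.80) and ATP6AP2 (0.96) went the other way. So averaged, ATP6V1C1 (-0.14), ATP6AP2 (-0.43) and CLN3 (0.26) fell short of 1.5-fold, as did CLN3 (0.55) and GUSB (0.49) with centred ratios. Without the cross-matching probe set types _s_at and _x_at the same was true of CTSB (-0.57), HEXA (-0.47) and ATP6V1C1 (-0.58), whose dimmer probe sets were then read. That of HEXA gave only 29.7 and 41.0, far under the minimum, where the SD was 1.19.

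**Figure D3:**
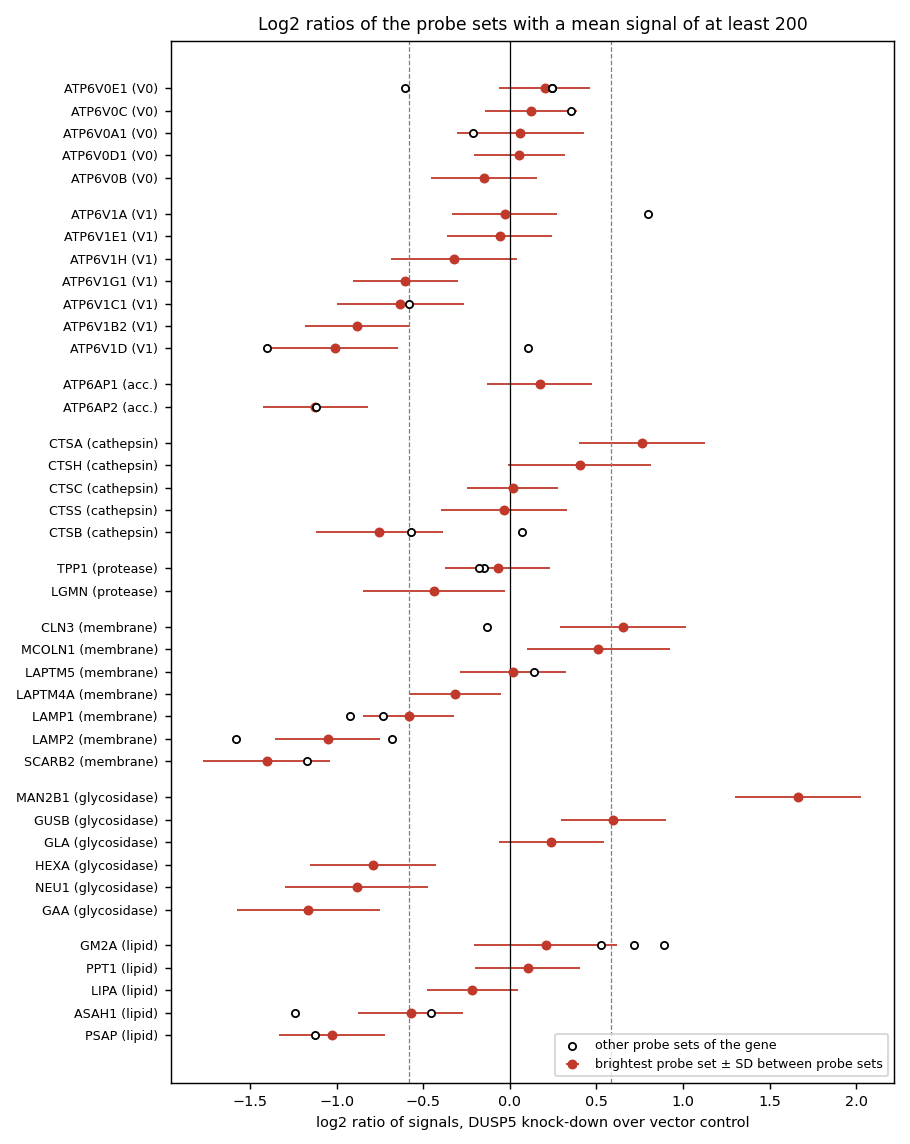
Log2 ratio (knock-down over control) of every probe set with a mean signal of at least 200, by gene and role. Filled points with bars are the brightest probe set and the SD between probe sets, open points the other probe sets of the gene, and dashed lines a 1.5-fold difference. The filled points of the V0 sector lie near 0, but open points of ATP6V0E1 (-0.60) and ATP6V0C (0.35) lie away from it. LAMP1, LAMP2, SCARB2, PSAP and ATP6AP2 lie to the left at all points, and MAN2B1 lies farthest to the right.

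TFEB had signals under the minimum on average. Its brighter probe set gave 70.2 on the knock-down array and 249 on the control array (-1.83, SD 0.73), and the other gave 101 and 198 (-0.97). Both were lower, at signals where the error is wide. Of 25 genes that are related to TFEB or control it at the lysosome, 16 were measured, with a median of -0.20. Of the 16, 4 (25%) were at least 1.5-fold lower and 1 (6.25%) was higher, beside 19% and 15.6% of all measured genes. The lower genes were TFEC, a relative of TFEB (186 and 618, -1.73, SD 0.41), RRAGC, a Rag GTPase that recruits mTORC1 (429 and 860, 49.9% of control), MLST8, a subunit of mTORC1 (725 and 1311, -0.85, SD 0.30), and LAMTOR3, a part of the Ragulator scaffold (490 and 842, -0.78, SD 0.36). TFEC passed the minimum only through the control array. MITF, another relative of TFEB, was higher (0.60, SD 0.41).

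The remaining genes of the lysosome were taken from lists that are not part of the 46. Of 47 further hydrolases, 19 were measured. A 1.5-fold higher signal was found for 3 genes (15.8%) and a lower one for 1 (5.26%), beside 15.6% and 19% of all measured genes. The median was 0.12. The sign of this median was not stable, at -0.37 for mean signals of at least 500, -0.0056 averaged over probe sets and -0.034 without the types _s_at and _x_at. The hyaluronidase HYAL2 (272 and 156, 0.80), the cathepsin CTSV (262 and 151, 0.80) and the acid amidase NAAA (0.76) were higher. HYAL2 and CTSV passed the minimum only through the knock-down array. The second probe set of NAAA, under the minimum, was lower (-0.77). SCPEP1, a serine carboxypeptidase, was lower (431 and 1157, -1.43, SD 0.36). Of 39 further membrane genes, 21 were measured, with a median of 0.13, and of -0.0088 for mean signals of at least 500. Of the 21, 3 (14.3%) were higher and 5 (23.8%) lower. The cation channel TPCN1 (688 and 290, 1.25), the tetraspanin CD63 (7924 and 4303, 0.88) and the cholesterol carrier NPC2 (2142 and 1301, 0.72) were higher. STARD3 (155 and 418, -1.43), the cystine exporter CTNS (-0.95) and OSTM1 (-0.87), which pairs with the chloride transporter CLCN7, were lowest. STARD3 passed the minimum only through the control array. Of 5 cystatins, which inhibit cathepsins, only CSTB was measured (3055 and 5613, -0.88, SD 0.26). Over all further lists, those of the V-ATPase, of TFEB control and of delivery to lysosomes included, 13 of 86 measured genes were higher and 13 were lower (15.1% each), with a median of 0.04. Among all measured genes 15.6% were higher and 19% lower.

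**Figure D4:**
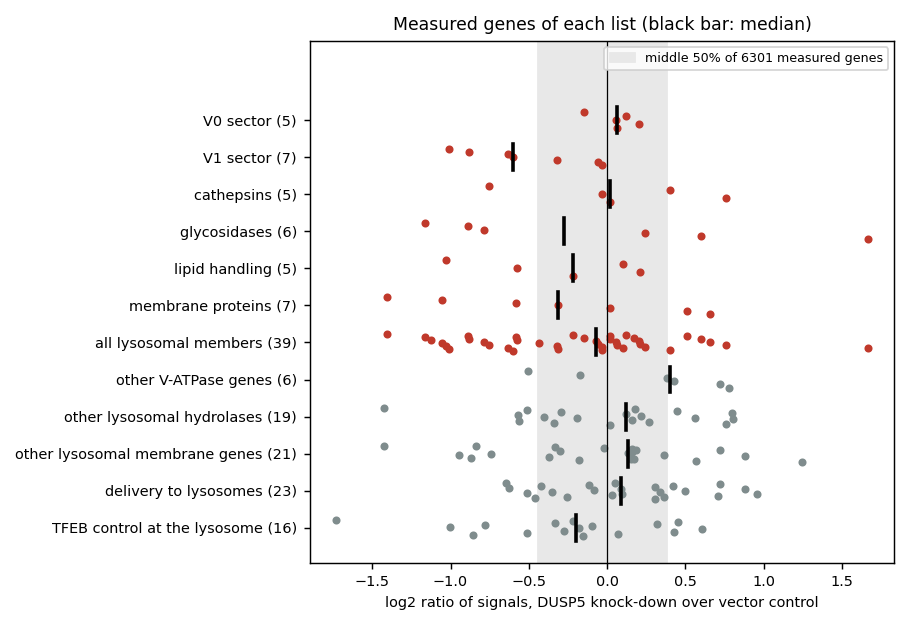
Log2 ratio (knock-down over control) of the measured genes of each list, with their number in brackets. Red points are the 46 genes described here and their groups, grey points the further lists, black bars the medians, and the grey band the middle 50% of all 6301 measured genes (-0.44 to 0.38). The median of the V1 sector lies left of the band, though not when probe sets are averaged per gene (-0.32). The medians of the other red groups lie inside the band. That of the further V-ATPase genes (0.41) lies right of it, though not without the probe set types _s_at and _x_at (-0.17).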

How the data were processed

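RNA of 1 vector-based knock-down of DUSP5 and 1 vector control of L-428 cells was hybridized to Affymetrix HG_133A microarrays. The deposited values are linear signal intensities, which the authors obtained with the MAS5 algorithm, scaled to a target intensity of 500. Of 22283 probe sets per array, 19065 had 1 symbol in the platform annotation and only these were named. All 46 symbols were found in the RefSeq gene table. The number of arrays limits the precision.

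The log2 ratio of knock-down over control was computed with no further normalization. A gene took the probe set with the highest mean signal. The SD is the root mean square difference between the log2 ratios of paired probe sets of a gene over the square root of 2, by band of mean signal. All members were named, and of each further list up to 3 genes with the highest and 3 with the lowest ratio. LAMTOR3 and GGA2 were named after their values were seen, and marker genes only as checks. The members and lists were chosen with earlier results of these data known. As alternatives, arrays were quantile normalized, ratios were centred or a lowess trend (span 0.3) was subtracted, 32 was added to the signals, the minimum was dropped or set to 500, the limit was set to 2-fold, probe sets were averaged per gene, and the cross-matching types (_s_at, _x_at) were omitted. The SD and the 1.5-fold call were tested on simulated data with the same noise at all signals and large differences. The alternatives and the promoter search were not tested in this way. Python 3.11.15, numpy 2.4.6, pandas 2.3.3, statsmodels 0.14.6 and matplotlib 3.10.9 were used.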

Additional observations from a re-analysis of the deposited data

How the results depend on the processing

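No paired analysis was possible because only 1 knock-down and 1 control array were analysed. The ratios of single genes moved by less than the SD between probe sets in 241 of 251 comparisons with an alternative and by more in 10, and none of the 1.5-fold differences changed sign. Part of this count was fixed in advance, because centring moves each ratio by 0.11 and the smallest SD was 0.26. Averaging leaves a gene with 1 probe set unchanged, and omitting probe set types leaves genes read at other types unchanged. Of the 12 lower and 4 higher genes, ATP6V1C1, ATP6V1G1, ATP6AP2, CTSB, HEXA, CLN3 and GUSB fell short of 1.5-fold under at least 1 alternative. HEXA did so only at a probe set with a mean signal of 35.3. LAMP1 passed 1.5-fold under 5 of 6, from -0.67 to -0.74, and was -0.58 with 32 added to the signals. ASAH1 passed it with centred ratios (-0.68), and GM2A, on the higher side, with the mean of all probe sets (0.84). Centring subtracts 0.11, the median of all named probe sets, and left 2 higher genes and 2 of 5 lipid genes changed. The medians were then -0.18 for all lysosomal genes, -0.21 for the V-ATPase and -0.066 for the further lists. Of all measured genes, 11.5% were then higher and 23.4% lower. At 2-fold, 1 gene was higher and 6 were lower, beside 4.38% and 7.3% of all measured genes. Changed were 2 of 14 V-ATPase genes, 0 of 5 cathepsins, 2 of 6 glycosidases and 5 of 86 genes of the further lists. Without the types _s_at and _x_at, 25 of the 39 genes were left. Then 2 were higher and 8 lower, beside 14.5% and 21.3% of all genes at that setting. The medians were -0.31 for all, -0.89 for membrane proteins, -0.056 for lipid genes and 0.15 for the further lists. Changed were 3 of 9 V-ATPase genes, 1 of 3 cathepsins, 3 of 4 glycosidases and 0 of 4 lipid genes. With the mean of all probe sets the medians were -0.14 for all, -0.077 for V0 and -0.32 for V1. Changed were 3 of 14 V-ATPase and 2 of 5 lipid genes, beside 15.7% of all measured genes higher and 17.8% lower. With quantile normalization 3 of 14 V-ATPase genes were changed, and the medians were -0.42 for lipid genes and 0.11 for the further lists. With the trend subtracted these values were 3, -0.40 and 0.084. Of all measured genes, 16.7% were higher and 16.9% lower with quantile normalization, and 15.8% and 17.7% with the trend subtracted. With no filter 4 of 8 cathepsins and 44 of 121 genes of the further lists were changed, beside 24.6% of all genes higher and 18.7% lower. At a mean signal of at least 500, 3 of 4 glycosidases and 13 of 50 genes of the further lists were changed. Of all genes of that signal, 15.7% were higher and 18.9% lower. The medians were 0.42 for glycosidases, -0.39 for lipid genes, -0.45 for membrane proteins and -0.18 for the further lists. Fewer genes are left by construction with the filters and probe set types; for the other settings the cause was not tested. Signal near background limits TFEB, CTSD, CTSL and CTSZ.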

Other observations

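Of 31 listed genes that carry enzymes to the lysosome, 23 were measured, with 4 (17.4%) at least 1.5-fold higher and 2 (8.7%) lower on the knock-down array, beside 15.6% and 19% of all measured genes. The median log2 ratio was 0.09, and -0.018 with centred ratios. AP1B1, a subunit of the clathrin adaptor AP-1, gave 902 on the knock-down array and 464 on the control array (0.96, SD 0.36). NAGPA, which uncovers the mannose 6-phosphate tag on hydrolases, gave 279 and 152 (0.88, SD 0.41) and passed the minimum only through the knock-down array. The AP-1 subunit AP1S1 gave 612 and 370 (0.72, SD 0.41), with 0.87 at its second measured probe set. GGA2, a further adaptor for receptors of this tag, was chosen after its values were seen. It gave 1961 and 1199 (0.71, SD 0.30) and was higher at all 8 of its probe sets, from 0.05 to 1.11. IGF2R, the large mannose 6-phosphate receptor, gave 377 and 589 (-0.64, SD 0.41) but was higher at its second probe set (0.27). VPS33B (-0.63) and VPS41 (-0.51), which take part in fusion with lysosomes, were lowest beside IGF2R.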
